A study of Trichechus manatus latirostris with 11 samples.

Results

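PPP1R3B and 8 other genes of glycogen metabolism were examined in the buffy coat (the leukocyte fraction of spun blood) of Florida manatees (Trichechus manatus latirostris). The genes were chosen by symbol, and PPP1R3B was selected on the measured difference between the groups, which is therefore described here without a test. Of the 9 genes, 6 had a row among the 15298 transcript records of the deposited table: the phosphatase subunits PPP1R3B, PPP1R3C and PPP1R3E, and the enzymes UGP2, PYGL and PYGB. Records under the symbols PPP1R3D, GYS1 and GBE1 were not found in this table and these genes are not analysed here.

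The red tide group held 4 adult manatees, all taken to Lowry Park Zoo for treatment of red tide illness. By the study, 2 of them were sampled on arrival and 2 after a week of treatment. Which libraries below came from which of these animals is not known. The control group held 7 adults without red tide illness, of which 4 were sampled at Crystal River and 2 in the Indian River Lagoon during health assessments, and 1 was at Lowry Park Zoo with pneumonia. In both groups ribosomal and globin RNA was depleted before paired-end sequencing, and by the labels the cells were kept in RNAlater. For the red tide group the study's methods instead tell of archived buffy coats that had been frozen without delay. Captivity, place and time of sampling and, by those methods, storage differed between the groups and cannot be told apart from red tide illness. The table gives group means under headings that do not name a group. One mean averages 4 libraries and the other 7, which are the sizes of the red tide and the control group, and the means are named below by their number of libraries. Which of them belongs to the red tide animals was inferred from these sizes and from the title of the table. That title names red tide first and "Other7" second. The question is not settled by the sources. The study's lists name PPP1R3B and the neutrophil genes MMP9, CXCR1 and CXCR2 under headings for genes raised in red tide animals, whereas by group size the smaller group, in which all of them were lower, is the red tide group. No direction with respect to illness is therefore drawn from any value below. The unit is the normalized count, reads divided by the size factor that corrects for the depth of a library. Size factors were 0.372 to 1.56 in the 4-library group and 0.702 to 1.73 in the 7-library group. The total reads of a library are unknown from these values.

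Glycogen is the branched store of glucose. UGP2 makes UDP-glucose, which glycogen synthase (GYS1 outside the liver) adds to the growing chain and the branching enzyme GBE1 branches. The glycogen phosphorylases, named PYGL for liver and PYGB for brain, release glucose 1-phosphate from the chain. The PPP1R3 proteins bind protein phosphatase 1 to glycogen, where it removes phosphate from glycogen synthase and from phosphorylase, which turns synthase on and phosphorylase off. PPP1R3B is best known from liver, but neutrophils also store glycogen and draw on it for glycolysis.

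PPP1R3B was lower in the 4-library group. It had the largest difference among the glycogen genes described here with a mean of at least 10, but it was picked for its difference. Its record, XM_004382798.1, carried no symbol in the RefSeq gene table of the TriManLat1.0 assembly. It was named through the supplementary gene list of the study, since the ratio of its means is the only 1 in the table that rounds to the value listed there. The mean was 47.3 normalized counts over the 4 libraries and 276 over the 7 libraries, so the 7-library mean was 5.84-fold higher. On the log2 scale, with the 4-library mean divided by the 7-library mean as for every ratio below, this was -2.54. PPP1R3C (4.99) and NHLRC1 (2.74) differed more, in the other direction, but averaged only 5.96 and 7.54 over all libraries.

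The 4 libraries could be read singly, because each read of a library adds a fixed amount to its group's mean. PPP1R3B had 57 reads in the library of size factor 1.56, 43 in that of 1.03, 52 in that of 0.620 and 10 in that of 0.372. In normalized counts these were 36.6, 41.9, 83.8 and 26.9 (mean 47.3 ± 25.1, SD, n = 4). All 4 libraries thus lay below the 7-library mean, at 13.2%, 15.2%, 30.4% and 9.75% of it. The same held in 1667 of the 9632 rows with known reads in the 4 libraries. For PPP1R3B, picked for its difference, nothing is read from it. The library of size factor 0.620 was the highest, and without it the log2 ratio was -2.97. Leaving out any 1 of the 4, the log2 ratio stayed between -2.97 and -2.35. The spread of PPP1R3B over the 7 libraries is not known at this level, so whether the groups overlap is not known either.

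Of all 15298 rows, the 7-library mean was at least 2-fold higher in 10.4% and the 4-library mean in 23.9%. Among the 10225 rows that averaged at least 10 over the 11 libraries, these shares were 9.59% and 12.3%. PPP1R3B ranked 43rd of those 10225 rows, counted from the lowest ratio, and 135th of all rows. Of the 6 glycogen genes, 1 was past 2-fold in each direction, PPP1R3B with the 7-library mean higher and PPP1R3C with the 4-library mean higher. Because PPP1R3B was picked for this difference, nothing is read from these counts. The median log2 ratio was -0.04 over the 6 genes and 0.14 over all rows.

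**Figure D1:**
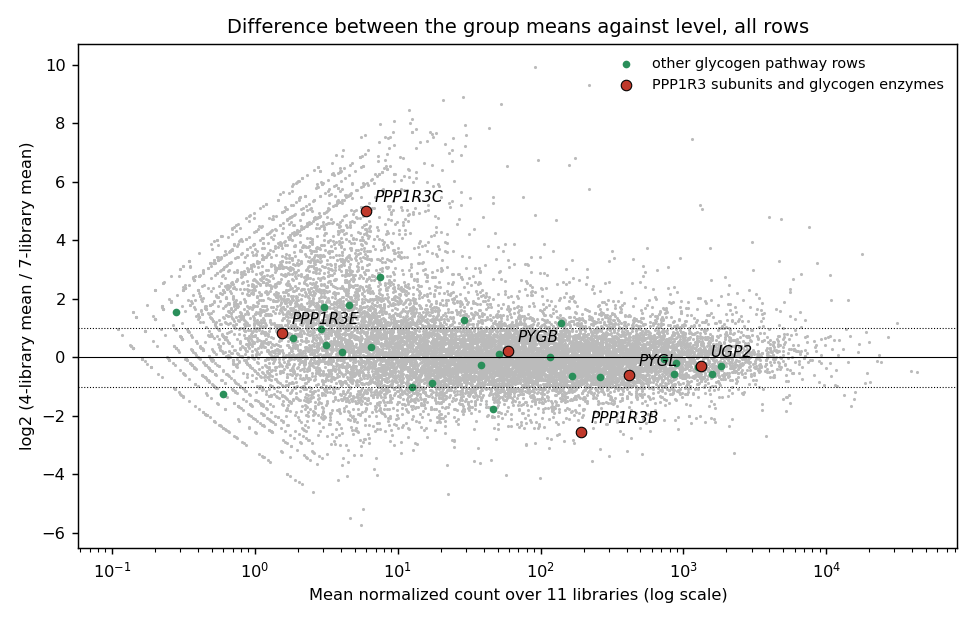
Log2 of the 4-library mean divided by the 7-library mean (y axis) against the mean normalized count over 11 libraries (x axis, log scale), 1 grey point per row, with the 6 PPP1R3 and enzyme genes in red and the other glycogen pathway rows in green; dotted lines mark a 2-fold difference. PPP1R3B lies at -2.54, at the lower edge of rows of its level, PPP1R3C at 4.99 among weakly expressed rows, and PYGB, PYGL and UGP2 lie within the dotted lines.

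PPP1R3C, also called PTG, is another of the subunits that target the phosphatase to glycogen. It was weakly expressed and was higher in the 4-library group. Its record XM_004369924.1 averaged 15.5 normalized counts in the 4 libraries and 0.488 in the 7, a log2 ratio of 4.99. From the largest to the smallest size factor (1.56, 1.03, 0.620 and 0.372) the 4 libraries held 0, 2, 24 and 8 reads, or 0, 1.95, 38.7 and 21.5 normalized counts. Of the 7 libraries, 1 held 4 reads, 3.41 normalized counts, and the other libraries held 0. The difference therefore rested on the libraries of size factor 0.620 and 0.372, and the groups overlapped, since the library of size factor 1.56 had no read. Such peaks were common, as these libraries were the highest of the 4 in 29.9% and 36% of 4975 rows. Those rows had a 4-library mean of at least 10 and known reads. Without the library of size factor 0.620 the log2 ratio was 4.00. Without the 1 library that held reads in the 7-library group, the other 6 gave no read. Against an assumed floor of 3 reads over those 6 libraries together, the 4-library mean was 35.2-fold higher. This value leaves out the spread between libraries in both groups, so it is not a lower limit. On the scale of log2(mean + 1) the difference was 3.47.

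PPP1R3E, a further targeting subunit, was close to the limit of detection in both groups. The record XM_004389919.1 had means of 2.15 and 1.22 normalized counts, a log2 ratio of 0.82. The 4 libraries held 2, 2, 0 and 2 reads and the 7 libraries 2, 0, 0, 2, 0, 0 and 4, each in order of falling size factor. The range of the 4 libraries, 0 to 5.38 normalized counts, lay within that of the 7, 0 to 5.70, and no difference was detectable at this depth. Without the library of size factor 0.372 in the 4-library group the log2 ratio turned to -0.18, and without the library of size factor 0.702 in the 7-library group it rose to 2.17. Among the 4446 rows with known reads in every library, all 4 libraries lay above all 7 in 2.79%; neither PPP1R3C nor PPP1R3E was among them. Most of these counts are even, and over all rows with known reads, values of 2 reads (3250 in the 4-library group) outnumbered values of 1 read (2026). Whether both mates of a pair were counted is not given in the sources used here, and where they were, a value of 2 reads can stand for a single fragment.

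**Figure D2:**
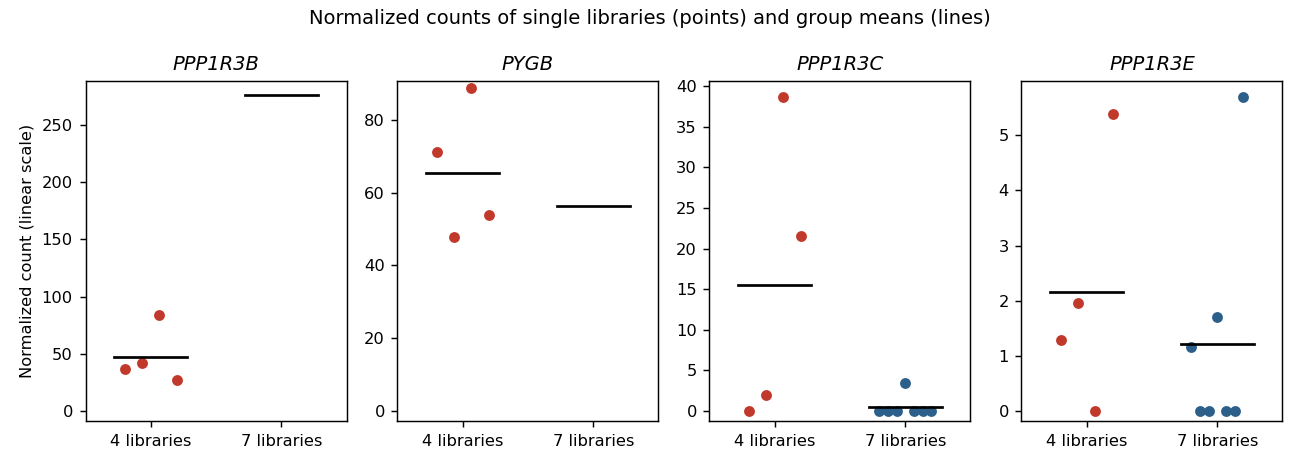
Normalized counts (y axis, linear scale, separate for each gene) of PPP1R3B, PYGB, PPP1R3C and PPP1R3E; points are single libraries, shown where their reads are known (4 libraries for all 4 genes, 7 libraries for PPP1R3C and PPP1R3E), and black lines are group means. The 4 PPP1R3B libraries, at 26.9 to 83.8, lie far below the 7-library mean of 276, while the 4 PYGB libraries, at 47.7 to 88.6, lie on both sides of theirs, 56.3.

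The means of the enzymes lay within 2-fold of each other. PPP1R3B was picked for its difference, so nothing is read from its larger ratio. UGP2 (XM_004369276.1), on the side of synthesis, had means of 1157 normalized counts over the 4 libraries and 1413 over the 7, a log2 ratio of -0.29. PYGL (XM_004370855.1), on the side of breakdown, had means of 314 and 478, a log2 ratio of -0.60. Both were somewhat lower in the 4-library group and within 2-fold, and the libraries behind these means could not be read singly.

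PYGB (XM_004376407.1), the other phosphorylase, had means of 65.3 and 56.3 normalized counts and a log2 ratio of 0.21. The 4 libraries held 111, 49, 55 and 20 of its reads from the largest to the smallest size factor, which came to 71.2, 47.7, 88.6 and 53.8 normalized counts (mean 65.3 ± 18.5, SD, n = 4). Of these, 2 lay below the 7-library mean and 2 above it. The difference between the means was smaller than the spread of the 4 libraries, and the log2 ratio stayed between 0.03 and 0.34 with each of them left out.

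Set side by side, synthesis and breakdown gave no common direction among the enzymes: UGP2 (-0.29) lay between PYGL (-0.60) and PYGB (0.21) on the log2 scale. PPP1R3B lay below all 3, but it was picked for its difference, so nothing is read from this gap. The other targeting subunits had no common direction, with PPP1R3C at 4.99, PPP1R3E at 0.82 and PPP1R3F at -0.88. The log2 ratio of PPP1R3B minus that of UGP2 was -2.26, minus that of PYGL -1.94 and minus that of PYGB -2.76. Within a library the ratio of PPP1R3B reads to PYGB reads does not depend on the size factor, and its change between groups does not depend on gene length. It was 0.514, 0.878, 0.945 and 0.500 in the 4 libraries in order of falling size factor. Between the 7-library means it was 4.90, but those are means of normalized counts and do depend on the size factors. How far the ratio varied among the 7 libraries could not be read. All 4 libraries held fewer PPP1R3B than PYGB reads, while in the 7-library means PPP1R3B had the higher count. Since PYGB differed little (0.21), this contrast restates the difference for which PPP1R3B was picked, and nothing further is read from it.

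Other genes of glycogen metabolism came from 4 lists of 41 genes in all, of which 23 had a row, with 26 rows together. The 4-library mean was at least 2-fold higher in 6 of the 26 rows and the 7-library mean in 3, beside the 23.9% and 10.4% of all rows given above. The median log2 ratio was -0.03 over the 26 rows. Of the 9 rows past 2-fold, PRKAG1 and SLC37A4 rested on 3 or fewer reads in at least 1 group. Among the 16 rows with a mean of at least 10, 2 had the higher 4-library mean by at least 2-fold and 2 the higher 7-library mean.

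In the synthesis list, STBD1, which binds glycogen and tethers it to membranes, had means of 18.6 and 62.8 normalized counts and a log2 ratio of -1.76. Its 4 libraries, at 4.49, 20.4, 22.6 and 26.9 normalized counts, all lay below the 7-library mean. This was so in 1667 of the 9632 rows with known reads in the 4 libraries. Phosphoglucomutase converts glucose 1-phosphate and glucose 6-phosphate into each other. One of its PGM1 records (XM_004369013.1) had means of 7.60 and 15.3, a log2 ratio of -1.01, and its 4 libraries spread from 0 to 16.1. The other PGM1 record (XM_004369014.1) gave 0.18, and PGM2, the gene of the list with the highest mean, gave -0.33 with means of 1080 and 1356. No row was found under GYS2, the liver glycogen synthase. Phosphoglucomutase works in both directions, and the placing of it and of STBD1 under synthesis was a choice of the list. No contrast of synthesis with breakdown is therefore read from these rows.

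None of the 3 rows of the breakdown list was past 2-fold, beside the 23.9% and 10.4% of all rows given above. With so few rows nothing is read from this. The median log2 ratio of the 3 rows was -0.25. All 3 are subunits of phosphorylase kinase, which turns phosphorylase on. PHKB, with the highest mean of the list, had means of 1603 and 1946 normalized counts and a log2 ratio of -0.28. PHKG2 gave -0.25, and PHKA1, with means of 4.24 and 2.16, gave 0.97. No row was found under PYGM, the muscle phosphorylase.

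Among genes that control the pathway, PRKAB2, the glycogen-binding subunit of the AMP-activated kinase, had the higher mean in the 4-library group, 216 against 95 normalized counts, a log2 ratio of 1.19. The other such subunit, PRKAB1, gave -0.64, and the catalytic subunit PRKAA2, with the highest mean of the list, gave -0.57 with means of 659 and 980. PPP1R3F, a further PPP1R3 subunit, had means of 11.4 and 20.9 and gave -0.88. Its 4 libraries, at 8.06 to 13.6 normalized counts, all lay below the 7-library mean, as in 1667 of the 9632 rows with known reads there. PPP1R3A, the muscle subunit, had no row.

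NHLRC1 and EPM2A were singled out after their values had been seen. They encode malin, a ubiquitin ligase, and laforin, a glycogen phosphatase, which act together and are lost in Lafora disease, where abnormal glycogen accumulates. NHLRC1 (XM_004382982.1) had means of 16.4 and 2.46 normalized counts, a log2 ratio of 2.74. Its 4 libraries held 40, 18, 9 and 3 reads, or 25.7, 17.5, 14.5 and 8.07 normalized counts. The 7 libraries held 0 to 5 reads, at most 7.12 normalized counts. The groups did not overlap, as in 2.79% of the rows with known reads in every library. EPM2A (XM_004368851.1) had means of 8.31 and 2.41 normalized counts, a log2 ratio of 1.78, and its 4 libraries, at 2.57 to 16.1 normalized counts, overlapped with the 7, which reached 8.55.

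In the list on supply and exit of glucose 6-phosphate, 3 of 7 rows had the higher 4-library mean by at least 2-fold and 0 the higher 7-library mean, beside 23.9% and 10.4% of all rows. Of the 3, SLC37A4 rested on 3 reads in the 4 libraries and 2 in the 7, and G6PC1 on 9 and 12 reads. Among the 4 rows with a mean of at least 10, only SLC2A1 was past 2-fold. The glucose transporter gene SLC2A1 had means of 46.2 and 19.2 and a log2 ratio of 1.27, and its 4 libraries were at 18, 17.5, 74.1 and 75.3, so that 2 of them lay below the 7-library mean. HK1, a hexokinase with the highest mean of the list, gave -0.56 with means of 1221 and 1801, and HK2 gave -0.06.

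**Figure D3:**
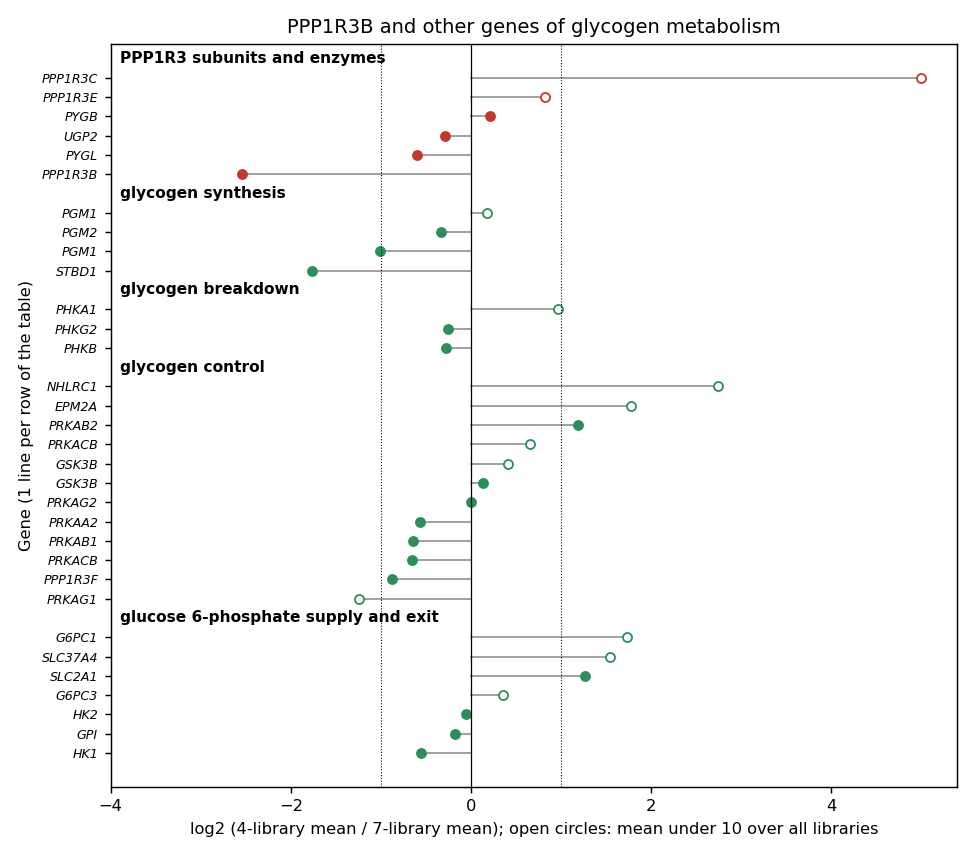
Log2 of the 4-library mean divided by the 7-library mean (x axis) for each row of the PPP1R3 subunits and enzymes (red) and of the 4 other glycogen lists (green), sorted within each list; open circles have a mean under 10 over all libraries and dotted lines mark a 2-fold difference. PPP1R3B (-2.54), picked for its difference, and STBD1 (-1.76) have the lowest ratios. The breakdown list stays within the dotted lines but has only 3 rows, too few for a contrast.

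Most markers of neutrophils, the granulocytes of blood, had the lower mean in the 4-library group, as PPP1R3B did. In buffy coat RNA, fewer cells of a type and less RNA per cell cannot be told apart. Of 20 neutrophil markers 15 had a row, 13 had the lower 4-library mean and 11 were past 2-fold in that direction, beside 10.4% of all rows. The list was written with earlier results of these data known, and the study's own lists name MMP9, CXCR1 and CXCR2. These counts are therefore not independent of the data. The median log2 ratio was -2.23, beside 0.14 over all rows, with the lowest value in MMP9 (-3.32) and the highest in FPR1 (0.66). Summed over the list the means were 6991 normalized counts in the 4 libraries and 21220 in the 7. The part of these markers in the PPP1R3B result was not tested. In the library of size factor 0.620, where PPP1R3B was highest of the 4, CXCR1, CXCR2 and MMP9 were also highest, at 122, 168 and 116 normalized counts, while PADI4 was lowest at 16.1. That library was the highest in 4 of the 6 neutrophil rows with known reads, and in 29.9% of 4975 rows with a 4-library mean of at least 10 and known reads. The neutrophil rows had no such cut, and ALPL and MME had 4-library means of 2.1 and 1.95. These shares therefore rest on unlike filters.

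The other marker lists lay nearer to 0 or above it. The median log2 ratio was -0.15 over 6 monocyte rows (CX3CR1 -1.59 to a VCAN record 1.29), -0.17 over 4 T cell rows (CD4 -1.04 to CD28 0.24) and -0.52 over 4 B cell rows (CD22 -1.07 to BLK 0.27). For NK cells there were 2 rows, EOMES (-2.08) and PRF1 (0.36). The erythroid median was -0.41 over 5 rows (ALAS2 -1.48 to KLF1 1.41). All 5 platelet rows had the higher 4-library mean, from GP1BA (0.81) to ITGB3 (2.21), with a median of 1.82 and summed means of 15250 against 4419. Liver and muscle, the tissues best known for glycogen, left few rows. Of 10 hepatocyte markers 5 had a row, from SERPINA1 (-1.22) to TAT (2.46), with summed means of 119 and 222 and none for ALB. Of 10 skeletal muscle markers 2 had a row, ACTA1 (1.11) and TTN (2.38), and none was found for CKM.

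**Figure D4:**
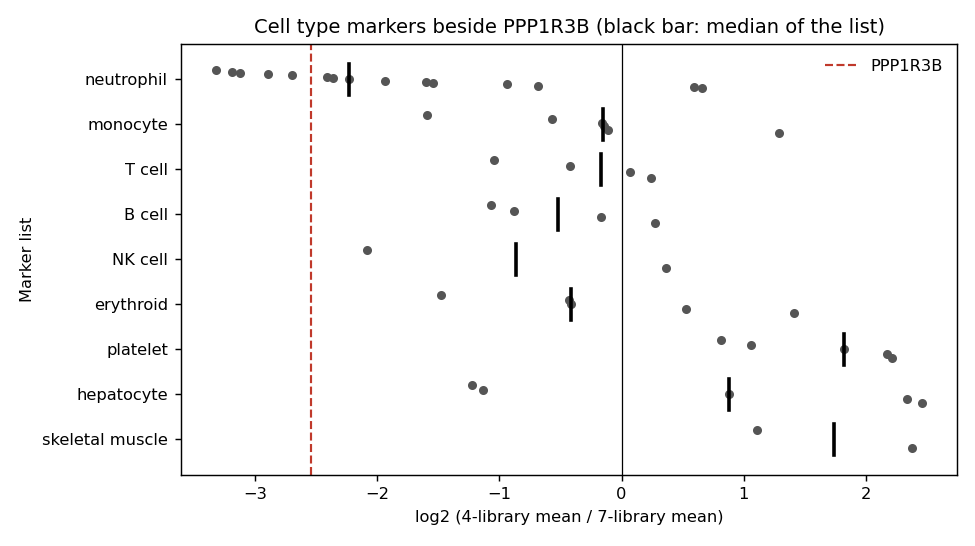
Log2 of the 4-library mean divided by the 7-library mean (x axis) for each row of 9 marker lists (y axis); grey points are rows, black bars the list medians and the dashed red line the PPP1R3B ratio of -2.54. The neutrophil median (-2.23) lies nearest to that line and the platelet rows all lie above 0.

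Genes whose values in the 4 libraries, relative to the 7-library mean, were most like those of PPP1R3B were sought among 6275 rows with a symbol. Likeness was the Euclidean distance over these 4 libraries of log2 values with a pseudocount of 1, so it draws on few libraries. It also draws on the difference between the groups. Low ratios in the nearest genes follow from the search, and nothing is read from them. PADI2, which converts arginine in proteins to citrulline, was the nearest with a distance of 0.741. It had 9.62, 16.5, 46.7 and 10.8 normalized counts in the 4 libraries in order of falling size factor and a 7-library mean of 103, a log2 ratio of -2.30. SKA1, a spindle and kinetochore gene, followed at 0.859, with a log2 ratio of -2.46. NAIP, a sensor of bacterial proteins, had the distance 1.10 and a log2 ratio of -2.66. PEAK3 (1.01) and AP1G1 (1.16) completed the 5 nearest with only 2 and 4 reads in the 4 libraries.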

How the data were processed

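The authors trimmed reads with Cutadapt, mapped them to TriManLat1.0 with Bowtie2, dropped duplicates, and counted uniquely mapped reads per gene sequence. In-house scripts, SAMtools and the DEB tool were named for these steps; for which of them counted the reads, and for the annotation release, nothing is given in the sources used here. Deposited by the authors was a signal, namely counts scaled by DESeq size factors and averaged within each group and overall. It also holds the authors' fold changes, p-values and adjusted p-values, which were not used. No column gives a single sample (0 such columns were left unused), so no test was made. Columns were tied to groups by the weights of their means (4 and 7 of 11) and by the order of the groups in the title.

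Records were matched to RefSeq symbols without their version number (10080 rows, 65.9%); PPP1R3B was named as stated above. What 1 read adds to a mean was found from the lowest values (455 and 1063 distinct values, all accounted for) by least squares. Reads were then searched for means up to 80 (4 libraries) and 6 (7 libraries), to within 6e-10 below 10 and 6e-09 above, and kept where 1 combination matched (9632 of 9634 and 4464 of 4505 rows). The procedure was tested on simulated data. Differences were called past 2-fold. Named genes were the 9 glycogen genes, pathway genes past 2-fold with a mean of at least 10, the highest gene of each pathway list, the extremes of each marker list and the 5 nearest genes. NHLRC1, EPM2A, PPP1R3F, PRKAB1, PRKAG1, PHKA1, PHKG2, HK2, G6PC1, SLC37A4, CXCR1, CXCR2, PADI4 and the second PGM1 record fell outside this rule and were named after their values had been seen. The genes, lists and rules were chosen with earlier results of these data known. A few genes of the lists are not reported here and were left out of every list value. No promoter or protein sequence was used here, and no coordinates are given, since the gene table names no scaffold. Python 3.11.15, numpy 2.4.6, pandas 2.3.3 and scipy 1.17.1 were used.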

Additional observations from a re-analysis of the deposited data

Results flagged for a closer look

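Single libraries stood apart from the others of their group in 3 of the 14 sets of 4 or 7 libraries tested by Dixon's criterion. Its chance rate of about 1 set in 20 holds for continuous values and not for counts this low. A set with reads in only 1 library always passes, as for PPP1R3C and PEAK3, so nothing is read from this number of sets. PPP1R3C had 3.41 normalized counts in 1 library of the 7, where the others had none. PPP1R3E had 5.70 normalized counts in the library of size factor 0.702 of the same group. PEAK3 had 3.22 normalized counts in 1 library of the 4 and none in the others. Each of these values came from 2 to 4 reads.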

How the results depend on the processing

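Dropping any single library of the 4 gave log2 ratios from -2.97 to -2.35 for PPP1R3B and from 0.03 to 0.34 for PYGB, and none of the 7 could be left out for these genes. Over all 11 such omissions the ratio ranged from -0.18 to 2.17 for PPP1R3E. For PPP1R3C it ranged from 4.00 to 5.41 over 10 of the 11. Without the other library the 7-library group has no read, so that the range has no known top. Only the value of 35.2-fold against an assumed floor of reads exists there, and it is not a lower limit. With a pseudocount of 1, with centring on the median of rows with a mean of at least 10 (-0.0122), and with the median of the 4 libraries in place of the mean, each ratio kept its sign and moved by less than the spread of the 4 libraries where that is known, and otherwise by under 0.1. The number of glycogen genes past the threshold, 1 in each direction, came to 2 in each at 1.5-fold. With rows of a mean of at least 10 it was 0 where the 4-library mean was higher, PPP1R3C being weaker than that. With records matched to their version number it was 0 where the 7-library mean was higher, since PPP1R3B has no RefSeq match. Of the pathway list rows, 3 had the higher 7-library mean at 2-fold, 6 at 1.5-fold and 2 with centring on the median, where a PGM1 record at -1.01 dropped out; at 4-fold 1 had the higher 4-library mean and 0 the higher 7-library mean; and with a mean of at least 10 the first count was 2. No glycogen gene of the 6 had more than 1 row, so summing records gave no further value. No paired analysis was possible because the table holds group means and no column of a single sample. Depth limits PPP1R3C and PPP1R3E most, and the 7 libraries are known for these genes but not for PPP1R3B.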
